A study of Mus musculus with 6 samples.

Results

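The genes described here are 6 transcription regulators of the T follicular helper (Tfh) lineage: Ascl2, Bcl6, Tox, Tox2, Pou2af1 and Prdm1. They were taken by symbol from the 32285 genes of the deposited single-cell matrices, and all 6 were found. The measurements are UMI counts, per gene and per cell, of 4 libraries (10x, 3′ end) of OT-II CD4+ T cells, which all carry the same transgenic T cell receptor for ovalbumin. In the WT group (libraries WT 1 and WT 2) the cells came from OTII+/+RAG-/- donors with wild-type Tgfbr1. In the mutant group (libraries mutant 1 and mutant 2) the OTII+/+RAG-/- donors were TgfbrIWT/mut, that is heterozygous for a knock-in of the M318R allele in the receptor gene Tgfbr1. In both groups the donor cells went by vein to CD45.1 WT hosts, which keep their own lymphocytes and drank water with 1.5% ovalbumin for 7 days. On day 8 the CD45.2+CD45.1-CD4+CD8-TCRβ+ cells were sorted from Peyer's patches. The labels do not say whether the libraries came from separate animals, so the spread behind each p-value may be technical. Of the matrices only the WT ones list antibody tags (3 each), so tagging and genotype cannot be told apart.

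Tfh cells help B cells in germinal centres, and Peyer's patches hold such centres at all times. Bcl6 is the zinc-finger repressor that defines the lineage. Ascl2, a basic helix-loop-helix factor, can start the programme by raising the follicle-homing receptor Cxcr5. Tox and Tox2 are HMG-box proteins, and Tox2 supports Bcl6 by opening chromatin at Tfh genes. Pou2af1 (OBF-1, also called Bob1) is a coactivator of octamer-binding factors, best known in B cells and also active in Tfh cells. Prdm1 encodes Blimp-1, a repressor that opposes Bcl6, drives plasma cells and marks effector and regulatory T cells of the gut.

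The sequences just upstream of Ascl2 and Tox2 are shown because these were the 2 members that passed the genotype test below. Both are from RefSeq (GRCm38.p6), run 5′ to 3′ on the gene's strand, and end at the base before the annotated start. Capitals mark E-boxes, the sites of helix-loop-helix factors such as Ascl2, searched as CANNTG on both strands.
Ascl2, chr7:142969265-142969514, minus strand: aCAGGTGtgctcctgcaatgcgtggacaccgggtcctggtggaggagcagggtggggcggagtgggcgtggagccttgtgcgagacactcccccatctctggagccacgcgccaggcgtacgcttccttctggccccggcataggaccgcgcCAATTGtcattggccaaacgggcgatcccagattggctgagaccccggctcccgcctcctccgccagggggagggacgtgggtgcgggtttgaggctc
Tox2, first of 5 starts, chr2:163202877-163203126, plus strand: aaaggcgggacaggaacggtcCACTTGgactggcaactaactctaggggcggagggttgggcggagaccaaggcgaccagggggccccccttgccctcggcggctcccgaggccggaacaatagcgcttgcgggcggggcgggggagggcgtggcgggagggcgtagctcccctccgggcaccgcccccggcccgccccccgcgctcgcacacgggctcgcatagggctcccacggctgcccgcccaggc
The Ascl2 window held 2 E-boxes and this Tox2 window held 1. Of all 32851 windows of 250 bases upstream of a listed start, 66.2% held at least 1, so such a match is common. Neither window held the core CAGCTG (13.0% of all windows), the STAT pattern TTCNNNGAA (7.02%) or the octamer ATGCAAAT (1.60%). A match says only that the letters are there.

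The 4 libraries held 4803 barcodes, of which 3108 passed the filters (at least 500 genes, at most 10% mitochondrial UMIs). After removal of 31 doublets and a cluster of 109 cells with epithelial, B and plasma cell markers, 2968 T cells were kept. Of them, 1275 and 630 came from the WT libraries and 882 and 181 from the mutant libraries. These held 1704466 to 12037682 UMIs per library, with medians of 8638 to 9039 per cell. Mutant 2 thus rests on the fewest cells. Libraries shared 7 to 18 barcodes pairwise, at most 2 among kept T cells. A Cd3 transcript was found in 99.9% of kept cells. Tgfbr1 itself stood at 31.5 and 26.1 CPM (the gene's UMIs per 1000000 UMIs) in WT and 27.8 and 17.0 CPM in mutant libraries (log2 fold change -0.25 ± 0.19, edgeR adjusted p = 0.637). Counts near the 3′ end do not read the altered base, so this is no check of the genotype.

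Ascl2 and Tox2 were higher in mutant than in WT cells when all kept T cells of a library were summed, and the other 4 members did not pass the test. Here and below, levels in the genotype tests are TMM-scaled CPM, differences are log2 fold changes (mutant minus WT) ± SE, and a gene passed when edgeR's quasi-likelihood test gave it a Benjamini-Hochberg adjusted p under 0.05 over all tested genes. Of 10727 genes, 141 passed (1.31%), 88 of them higher in mutant cells (0.82%) and 53 lower (0.494%), against 2 of the 6 members, both higher. A further 1 member, Tox, had an unadjusted p under 0.05. With the 2 that passed, this made 3 of 6 members, against 1342 of the 10727 genes.

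Ascl2 (ENSMUSG00000009248, chromosome 7, 142966829 to 142969264, minus strand, GRCm38) stood at 25.7 CPM in WT 1 and 44.2 CPM in WT 2, and at 103 CPM in mutant 1 and 59.0 CPM in mutant 2. Both mutant libraries lay above both WT libraries, and mutant 1 was far above mutant 2. Here and below, such a separation of 2 libraries from 2 has an exact two-sided permutation p of 0.333 for any gene. The share of all genes so separated is not given. The means were 34.9 ± 13.0 CPM in WT and 80.8 ± 30.9 CPM in mutant cells (SD, n = 2 each), and the log2 fold change was 1.33 ± 0.24 (edgeR adjusted p = 0.00837; 1.98e-13 to 1.00 over the alternatives). Tox2 (ENSMUSG00000074607, chromosome 2, 163203125 to 163324170, plus strand) stood at 39.2 CPM in WT 1 and 58.6 CPM in WT 2, and at 107 CPM in mutant 1 and 72.0 CPM in mutant 2. The order of the libraries was the same as for Ascl2 and the groups again did not overlap. The means were 48.9 ± 13.7 and 89.7 ± 24.9 CPM (SD, n = 2 each), and the log2 fold change was 0.95 ± 0.19 (edgeR adjusted p = 0.0230; 6.14e-07 to 0.574 over the alternatives). Neither gene passed in DESeq2 (adjusted p = 1.00 and 0.0948), with doublets kept (edgeR adjusted p = 0.0514 and 0.0700) or with the B and epithelial cells kept (edgeR adjusted p = 0.445 and 0.454). Both calls also rest on mutant 1: without it Ascl2 gave 0.79 (edgeR adjusted p = 0.223) and Tox2 0.57 (edgeR adjusted p = 0.251). Without WT 1, Tox2 gave 0.64 (edgeR adjusted p = 0.495) and Ascl2 kept its call (0.92, edgeR adjusted p = 0.0353).

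**Figure D1:**
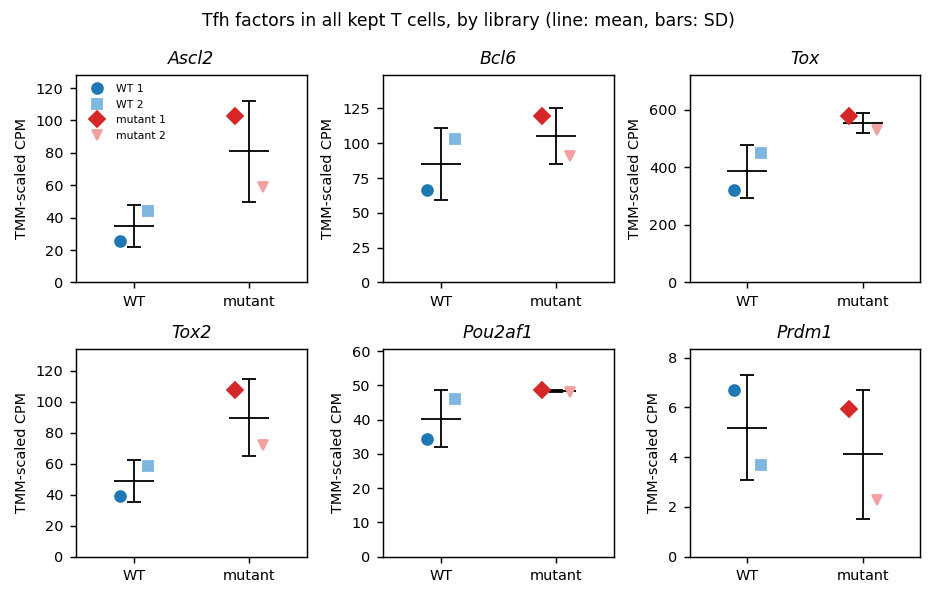
Level of each of the 6 genes in all kept T cells, as TMM-scaled CPM (vertical axes from 0), with 1 point per library, the group mean as a line and the SD as bars (n = 2 each). For Ascl2 and Tox2 both mutant libraries lie above both WT libraries, with mutant 1 highest at 103 and 107 CPM.

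Tox (ENSMUSG00000041272, chromosome 4, 6686353 to 6991557, minus strand), an HMG-box factor needed for CD4 T cell development, stood at 322 CPM in WT 1 and 451 CPM in WT 2, and at 578 CPM in mutant 1 and 529 CPM in mutant 2. The groups did not overlap, but the difference missed the threshold (0.52 ± 0.16, edgeR adjusted p = 0.139), and it passed without WT 2 (0.78, edgeR adjusted p = 0.0471). Bcl6 (ENSMUSG00000022508, chromosome 16, 23965052 to 23988852, minus strand) stood at 66.6 and 103 CPM in WT and 119 and 90.8 CPM in mutant libraries. WT 2 lay above mutant 2, so the groups overlapped (0.36 ± 0.18, edgeR adjusted p = 0.456). Pou2af1 (ENSMUSG00000032053, chromosome 9, 51213708 to 51240080, plus strand) stood at 34.4 and 46.1 CPM in WT and 48.5 and 48.2 CPM in mutant libraries (0.29 ± 0.16, edgeR adjusted p = 0.501). The mutant libraries lay just above WT 2. Prdm1 (ENSMUSG00000038151, chromosome 10, 44437177 to 44528501, minus strand) was scarce, with 79 and 21 UMIs in the WT and 46 and 4 UMIs in the mutant libraries. Its levels of 6.68, 3.70, 5.95 and 2.27 CPM overlapped (-0.13 ± 0.39, edgeR adjusted p = 0.916), and a difference of this size was not detectable at this depth.

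Markers of B and plasma cells, which use Pou2af1 and Prdm1, differed between the groups. The 12 B cell markers summed to 17.1 and 21.2 CPM in WT and 26.2 and 29.3 CPM in mutant T cells, and the 9 plasma markers to 158 and 218 against 283 and 332 CPM. The plasma markers Tnfrsf17 and Iglv1 were at 0 in all 4 libraries, and the B cell marker Ms4a1 was at 0 in 3 of the 4. In cells with no UMI of the B cell genes used for this check, Pou2af1 stood at 34.2, 46.2, 47.4 and 49.7 CPM (unscaled), close to 33.7, 45.8, 47.7 and 49.9 CPM in all kept cells. In bulk sums, fewer cells of a state and less RNA per cell cannot be told apart, and the states are taken up below.

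The wider Tfh network was read through 5 gene lists in the same test. Of the 16 Tfh-supporting factors tested, none rose and 1 fell: Lef1, a partner of Tcf7 that promotes Bcl6 and is also high in naive cells, fell from 247 and 209 CPM to 139 and 144 CPM (-0.69 ± 0.14, edgeR adjusted p = 0.0186). Maf, which drives Il21 and Il4, was at 1029 and 1437 CPM in WT and 1697 and 1503 CPM in mutant libraries and did not pass (0.38 ± 0.17, edgeR adjusted p = 0.349). Tcf7 (-0.30, edgeR adjusted p = 0.368) and Ikzf2 (-0.04, edgeR adjusted p = 0.936) did not pass either. The list's median was 0.12, beside -0.0014 over all tested genes.

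Of the 15 opposing factors and signals, none rose and 2 fell. Foxp3, the factor of regulatory T cells, fell from 24.5 and 12.7 CPM to 5.70 and 1.70 CPM (-2.02 ± 0.36, edgeR adjusted p = 0.00830). Klf2, which keeps T cells out of follicles, fell from 151 and 93.5 CPM to 34.6 and 84.0 CPM (-1.23 ± 0.29, edgeR adjusted p = 0.0470). Id2, an inhibitor of helix-loop-helix factors, missed the threshold (-0.50, edgeR adjusted p = 0.0891), and Foxp1 (0.08, edgeR adjusted p = 0.839) and Il2rb (0.20, edgeR adjusted p = 0.568) did not pass. The list's median was -0.0031.

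Of the 16 measured Tfh surface and secreted genes, 1 rose and none fell. Sostdc1, a Wnt and BMP antagonist made by Tfh cells, rose from 63.7 and 114 CPM to 153 and 216 CPM (1.05 ± 0.22, edgeR adjusted p = 0.0248). Izumo1r (-0.16, edgeR adjusted p = 0.681), Tnfsf8 (0.32, edgeR adjusted p = 0.513) and Slamf6 (-0.05, edgeR adjusted p = 0.909), the most abundant of the rest, did not pass. The list's median was 0.32, and 13 of the 16 estimates were above 0. Cxcl13 was too low to test.

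Of the 12 genes that Bcl6 or Ascl2 is known to hold down, none rose and 3 fell: Klf2, given above, and 2 homing genes. Ccr7, the receptor that holds cells in the T cell zone, fell from 84.1 and 60.9 CPM to 33.3 and 42.5 CPM (-1.01 ± 0.18, edgeR adjusted p = 0.00830). Selplg, a selectin ligand that binds T zone chemokines, fell from 110 and 88.0 CPM to 53.7 and 68.6 CPM (-0.74 ± 0.16, edgeR adjusted p = 0.0268). Gpr183, which guides cells to the follicle's edge, did not pass (-0.42, edgeR adjusted p = 0.211). The list's median was -0.46, and it includes Prdm1. Of the 13 relatives of the members, 6 were abundant enough to test and none passed, including Tox4 (-0.07, edgeR adjusted p = 0.869), Prdm2 (0.36, edgeR adjusted p = 0.317) and Prdm4 (0.20, edgeR adjusted p = 0.752). Their median was 0.31. Of the 6 listed genes that passed, none did without WT 1 and none without mutant 1, while 10 list genes passed without WT 2 and 13 without mutant 2. These lists and the members were chosen with earlier results of these data known, so the counts are a description.

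Across T cell states, Ascl2, Bcl6, Tox2 and, less sharply, Tox were highest in the same 2 clusters by the mean over libraries. Pou2af1 was highest in 1 of them, and Prdm1 was highest elsewhere. The kept cells formed 12 clusters, built without the 6 members. A cluster took a name when at least 3 listed markers were among its 50 leading genes, and the Tfh-like markers also left out the members. The Tfh-like cluster (405 cells, led by Sostdc1) made up 9.57% and 18.3% of WT and 16.2% and 13.8% of mutant cells. Cluster 2 (418 cells, led by BC018473, Id1, Ctsl and Ascl2) held too few Tfh markers for a name. It made up 6.12% and 11.1% of WT and 27.6% and 14.9% of mutant cells. Cluster 0 (524 cells, led by Slc29a1, Hectd2 and Id2) made up 12.4% and 22.1% of WT and 18.8% and 33.7% of mutant cells. The naive or memory-like cluster (442 cells, led by Klf2 and Ccr7) made up 23.8% and 13.0% of WT and 4.31% and 9.94% of mutant cells. Since states were clustered from these cells, levels across them are a description with no test. They are unscaled CPM, and means and SDs run over libraries with at least 20 cells of the state. The proliferating cluster (24 cells) reached 20 cells in no library and is left out of these rankings.

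**Figure D2:**
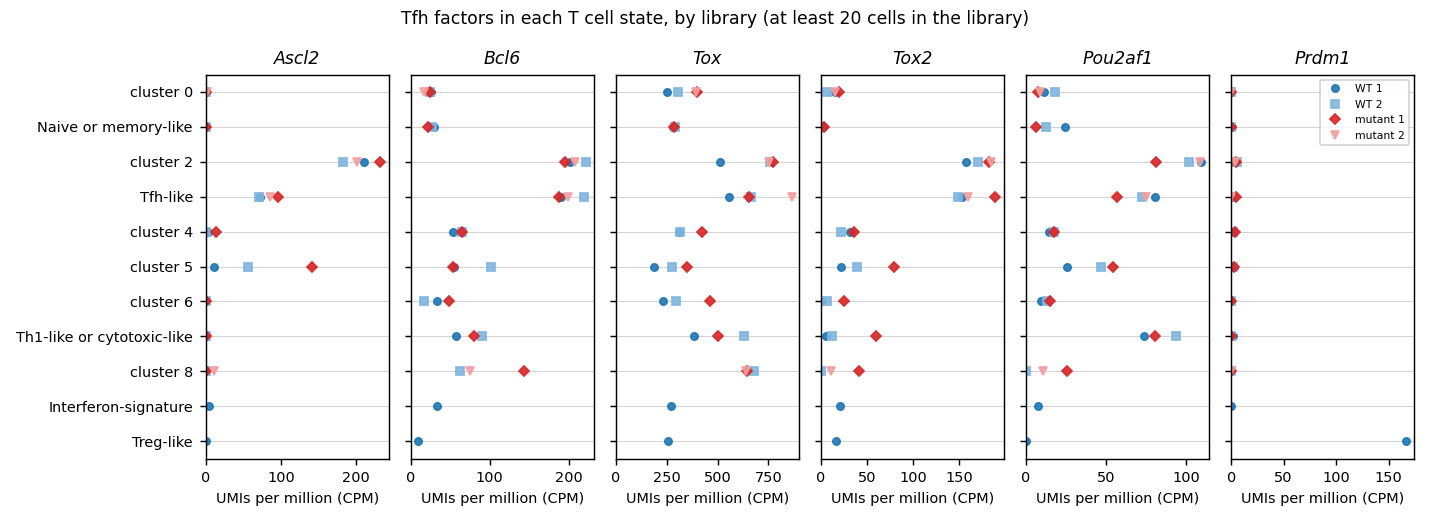
Level of each gene (horizontal axis, CPM from 0) in each T cell state, with 1 point per library that had at least 20 cells of the state. Bcl6 and Tox2 have their highest points in cluster 2 and the Tfh-like cluster, and Prdm1 in the Treg-like cluster, where only WT 1 had enough cells. Ascl2 has its highest points in cluster 2, and its point for cluster 5 of mutant 1 (142 CPM) lies above all Tfh-like points.

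Ascl2 was the most restricted of the 5 Tfh factors. It stood at 210, 183, 232 and 201 CPM in cluster 2 of WT 1, WT 2, mutant 1 and mutant 2, and at 72.5, 71.2, 96.6 and 85.6 CPM in the Tfh-like cluster. The 2 states did not overlap in any library. Cluster 2 held 69.5% of all Ascl2 UMIs and the Tfh-like cluster 19.7%. By the mean, cluster 5 came next, led by the biosynthesis genes Cdca7 and Srm. It stood at 11.2, 56.9 and 142 CPM in WT 1, WT 2 and mutant 1, a spread as wide as its mean of 70.0 CPM. In mutant 1 it lay above the Tfh-like cluster. No Ascl2 UMI was found in 442 naive or memory-like cells (which allows a UMI in up to 0.679% of such cells, and sets no limit on cells that express the gene), 135 Th1-like or cytotoxic-like cells, 172 cells of cluster 6 or 92 Treg-like cells. In cells thinned to 4000 UMIs, an Ascl2 UMI was found in 49.1% of cluster 2 cells (exact 95% interval 44.2 to 54.1%) and 23.5% of Tfh-like cells (19.4 to 28.0%). Without thinning the shares were 68.9% and 38.8%, at median depths of 10822 and 8353 UMIs. These intervals, and the limit for a count of 0, cover counting error only.

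Bcl6 and Tox2 differed little between these 2 states. Bcl6 averaged 207 ± 11 CPM in cluster 2 and 199 ± 14 CPM in the Tfh-like cluster (SD, n = 4 libraries), a gap smaller than the spread, though cluster 2 was the higher in 4 of 4 libraries. Next came cluster 8 (93.8 ± 43.6 CPM, on shallow cells described below), the Th1-like or cytotoxic-like cluster (76.2 ± 17.1), cluster 5 (70.2 ± 27.5) and cluster 4 (61.0 ± 6.7), which overlapped one another. It was lowest at 26.1 ± 4.1 CPM in naive or memory-like cells, 23.1 ± 4.1 in cluster 0 and 9.64 CPM in the Treg-like cells of WT 1. Tox2 averaged 174 ± 13 CPM in cluster 2 and 163 ± 18 CPM in the Tfh-like cluster, again within the spread, and was higher in cluster 2 in 3 of 4 libraries. Every other state averaged below 50 CPM, and naive or memory-like cells were lowest at 1.66 ± 1.55 CPM. Together cluster 2 and the Tfh-like cluster held 89.2% of Ascl2 UMIs, 79.8% of Tox2, 66.6% of Bcl6, 59.8% of Pou2af1, 47.6% of Tox and 18.7% of Prdm1 UMIs.

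Tox was found in every state. It averaged 699 ± 124 CPM in cluster 2, 686 ± 130 in the Tfh-like cluster, 655 ± 20 in cluster 8 and 506 ± 123 in the Th1-like or cytotoxic-like cluster, which overlapped, and 256 to 351 CPM in the remaining states. Cluster 8, led by Lars2, had shallow cells (median 3298 UMIs). Their median of mitochondrial UMIs was 7.64%, against 2.11 to 3.92% in the other kept clusters. Cluster 8 made up 1.02% and 3.17% of WT and 6.58% and 12.2% of mutant cells. Among the ranked states, Pou2af1 was highest in cluster 2 (100 ± 13 CPM), the Th1-like or cytotoxic-like cluster (82.5 ± 10.3) and the Tfh-like cluster (71.2 ± 10.1). In the 24 proliferating cells, not ranked, it stood at 92.9 CPM over all libraries, on 30 UMIs. The Th1-like or cytotoxic-like range overlapped both others, while the lowest library of cluster 2 (81.2 CPM) lay just above the highest of the Tfh-like cluster (80.7 CPM). In the Th1-like or cytotoxic-like cells, led by Eomes and Nkg7, it was thus not separable from Tfh-like cells, while Ascl2 was at 0 there and Tox2 at 25.5 ± 29.6 CPM. In those cells without a B cell UMI, Pou2af1 was at 81.1 CPM over all libraries, against 79.6 CPM in all of them. No Pou2af1 UMI was found in 92 Treg-like cells, which allows a UMI in up to 3.26% of them. The plasma markers summed to 468 CPM in cluster 2, 383 in the Tfh-like, 347 in the Treg-like, 98.3 in cluster 0 and 85.8 CPM in the Th1-like or cytotoxic-like cluster, and their part in the members' levels was not tested.

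Prdm1 had a pattern of its own. Of its 150 UMIs in kept T cells, 105 (70.0%) lay in the Treg-like cluster, led by Gzmb, Ccr9, Cxcr6, Il10 and Foxp3. There it stood at 166 and 92.2 CPM in WT and 160 and 45.2 CPM in mutant libraries, though only WT 1 had more than 20 such cells (58, 15, 17 and 2). The state's share of cells was 4.55% and 2.38% in WT and 1.93% and 1.10% in mutant libraries. Of its 92 cells, 47 had a Prdm1 UMI, and 37 of these also had Foxp3. Outside it, Prdm1 was found in 15 cells of cluster 2, of which 10 also had Bcl6, and in 6 Tfh-like cells. No Prdm1 UMI was found in the 524 cells of cluster 0, which allows a UMI in up to 0.573% of them.

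Within single states the genotype difference of no member passed. Of the tested genes, 0.0748% passed in Tfh-like cells (6 of 8025), 0.138% in cluster 0 (11 of 7971) and 0% in cluster 2, where 387 of 7305 genes had an unadjusted p under 0.05 and DESeq2 called 2. These 3 states had at least 20 cells in every library. In Tfh-like cells Ascl2 stood at 72.9 and 71.2 CPM in WT and 100 and 86.5 CPM in mutant libraries, which did not overlap (0.42 ± 0.20, edgeR adjusted p = 0.697). Tox (0.32 ± 0.15, edgeR adjusted p = 0.684) and Tox2 (0.30 ± 0.16, edgeR adjusted p = 0.743) did not overlap either, Bcl6 (-0.06 ± 0.16) and Pou2af1 (-0.28 ± 0.22) did. Without overlap, 2 libraries against 2 still give an exact two-sided permutation p of 0.333. Of the 5 members tested in Tfh-like cells, 2 (Ascl2 and Tox) had an unadjusted p under 0.05, against 565 of all 8025 genes. DESeq2 called none of the members there. In cluster 2 the differences were 0.19 ± 0.18 for Ascl2, 0.18 ± 0.18 for Tox2, 0.29 ± 0.18 for Tox, -0.06 ± 0.17 for Bcl6 and -0.24 ± 0.20 for Pou2af1, with edgeR adjusted p-values of 0.929 to 0.993. No member there had an unadjusted p under 0.05, and DESeq2 called none.

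In cluster 0, Tox stood at 252 and 312 CPM in WT and 412 and 392 CPM in mutant libraries (0.52 ± 0.14, edgeR adjusted p = 0.197). It was the only 1 of 4 tested members with an unadjusted p under 0.05, against 686 of all 7971 genes. Its groups did not overlap, and DESeq2 called no member there. Pou2af1 stood at 11.1 and 18.4 CPM in WT and 7.46 and 8.44 CPM in mutant libraries of cluster 0, on 4 to 21 UMIs each (-0.88 ± 0.49, edgeR adjusted p = 0.616). These groups did not overlap either, and the sign is opposite to that in all kept T cells. Tox2 (0.66 ± 0.42, edgeR adjusted p = 0.691) and Bcl6 (-0.15 ± 0.31, edgeR adjusted p = 0.920) overlapped. Ascl2 had 2 UMIs in cluster 0 and was not tested, and Prdm1 was too scarce for a test in any of the 3 states. When every library was given the same cluster shares by drawing cells, which left 50 cells in mutant 2, the difference in all T cells was 0.09 ± 0.19 for Ascl2 and 0.33 ± 0.16 for Tox2, against 1.33 and 0.95 with all cells, and neither passed (edgeR adjusted p = 0.944 and 0.574). Tox gave 0.31 ± 0.13 (edgeR adjusted p = 0.483), against 0.52 with all cells. The difference of the genotype effect between Tfh-like cells and cluster 0 passed for 0.0466% of genes (4 of 8585) and for none of the 5 members tested, none of which had an unadjusted p under 0.05. Ascl2 was among these 5, but with 2 UMIs in cluster 0 its genotype effect there cannot be read, so its result says nothing.

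**Figure D3:**
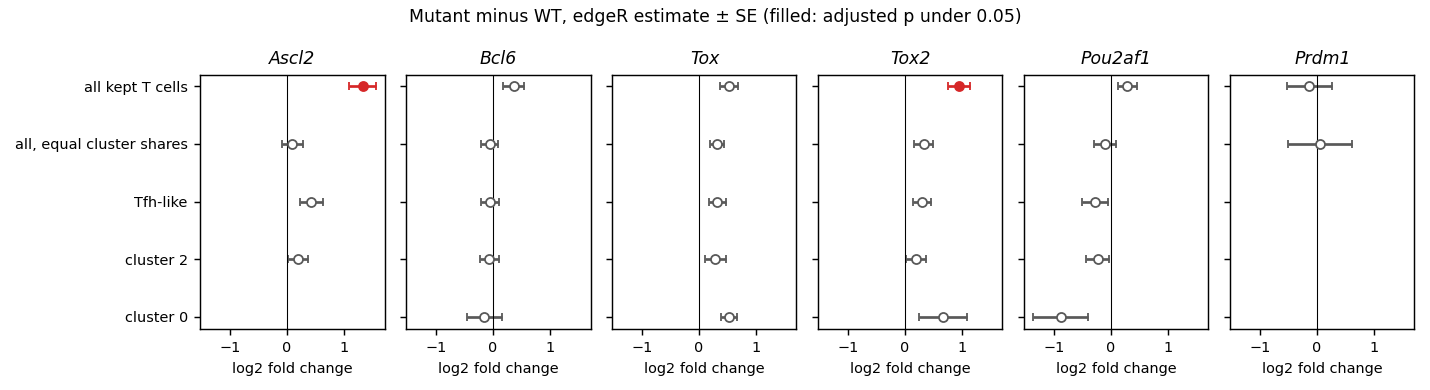
Mutant minus WT log2 fold change ± SE (horizontal axes) of each gene in all kept T cells, at equal cluster shares and within the 3 states tested. Only Ascl2 (1.33) and Tox2 (0.95) in all kept T cells are filled, which marks an adjusted p under 0.05, and both lie nearer 0 at equal cluster shares and within Tfh-like cells and cluster 2.

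Whether the factors occur in the same cells was asked without clusters. In every library the cells with at least 1 UMI of a splitting gene were compared with those without, over 4 library pairs, and the splitting gene itself was not read. Each of the 5 Tfh factors was higher in the cells with any other of them: 20 of 20 such pairs passed, all upward. The background was high: 28.6% of tested genes passed in either direction when split by Ascl2, 21.6% by Tox2, 17.1% by Pou2af1, 15% by Bcl6 and 2.75% by Tox. In Tox2-positive cells, Ascl2 stood at 98.0, 127, 177 and 136 CPM against 6.92, 10.8, 39.1 and 12.2 CPM in Tox2-negative cells of the same libraries (3.04 ± 0.20, edgeR adjusted p = 6.66e-09). The gap held in 4 of 4 libraries. In Ascl2-positive cells, Tox2 stood at 162, 180, 189 and 169 CPM against 25.0, 32.8, 66.8 and 27.4 CPM (2.20 ± 0.15, edgeR adjusted p = 2.67e-09). The level of Tox2 in Ascl2-positive cells overlapped between WT and mutant libraries, that of Ascl2 in Tox2-positive cells did not, and the Ascl2-negative cells of mutant 1 were the highest of their kind.

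Bcl6 was 3.17-fold higher in Ascl2-positive cells (1.66 ± 0.12), 3.14-fold in Tox2-positive, 2.07-fold in Pou2af1-positive and 2.49-fold in Tox-positive cells, each with an edgeR adjusted p of at most 1.25e-08. Pou2af1 was 3.48-fold higher in Ascl2-positive and 2.91-fold higher in Bcl6-positive cells. Tox differed least, by 1.35-fold (Pou2af1-positive) to 1.56-fold (Tox2-positive). The follicle receptor Cxcr5 and the Tfh cytokines Il21 and Il4 gave the same direction: all 5 factors were higher in cells with each of them, against 15.3%, 18.5% and 15.2% of tested genes passing. Ascl2 differed by 2.54 ± 0.13 for Cxcr5, 2.58 ± 0.20 for Il21 and 1.63 ± 0.15 for Il4. All 35 upward calls of the 5 factors held without each library in turn. With every cell thinned to 4000 UMIs, 2 of the 35 calls were lost, both of Pou2af1: by Tox (0.62, edgeR adjusted p = 0.0539) and by Il4 (0.22, edgeR adjusted p = 0.632). Within Tfh-like cells only, 31 of all 40 calls could be tested, and 2 remained, both of Ascl2: in Pou2af1-positive (0.84, edgeR adjusted p = 0.0303) and in Cxcr5-positive cells (1.13, edgeR adjusted p = 0.0100). Of all tested genes, 0.238% and 0.0941% passed in those 2 fits, and 0.618% for Ascl2, 0.143% for Bcl6, 0.137% for Tox2, 0.399% for Il21 and 0.0165% for Il4.

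**Figure D4:**
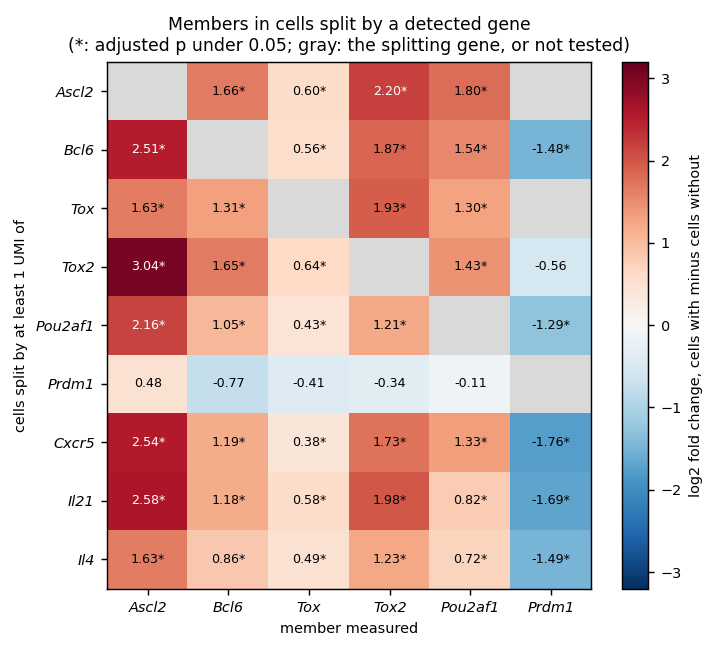
Log2 fold change of each gene (columns) between cells with and without a UMI of the splitting gene (rows), over 4 library pairs, with colour and number giving the same value and a star for an edgeR adjusted p under 0.05. The 5 Tfh factors are higher in all their mutual splits and in those by Cxcr5, Il21 and Il4, while Prdm1 is lower, from -0.56 to -1.76, in the 6 splits where it could be tested.

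Over all kept T cells, Prdm1 went the other way. It could be tested in 6 of the 8 splits by other genes and was lower in 5. Of the 82 cells with a Prdm1 UMI, 47 lay in the Treg-like cluster, where Bcl6 was found in 7 of 92 cells. In cluster 2, 10 of the 15 Prdm1-positive cells also had Bcl6. The splits were not repeated without the Treg-like cells, so a difference outside that state was not tested. In Bcl6-positive cells Prdm1 stood at 2.90, 1.55, 3.55 and 1.29 CPM, and in Bcl6-negative cells at 8.76, 5.51, 8.59 and 3.07 CPM (-1.48 ± 0.29, edgeR adjusted p = 0.00145). It was lower in 4 of 4 libraries. The differences were -1.29 ± 0.41 for Pou2af1 (edgeR adjusted p = 0.0306), -1.76 ± 0.36 for Cxcr5, -1.69 ± 0.35 for Il21 and -1.49 ± 0.39 for Il4. In the Cxcr5, Il21 and Pou2af1 splits mutant 2 alone went the other way, on few UMIs. Without WT 1 the Cxcr5 call was lost (-1.16, edgeR adjusted p = 0.108), and without WT 2 the Pou2af1 call was lost (-1.49, edgeR adjusted p = 0.0830). Prdm1 was too low for a test without WT 1 in the Pou2af1, Il21 and Il4 splits and without mutant 1 in these 3 and the Bcl6 split, so those calls have no such check. It was also untested in the Pou2af1, Il21 and Il4 splits when cells with a B cell UMI were left out. For Tox2 the difference did not pass (-0.56 ± 0.34, edgeR adjusted p = 0.282). After thinning, Prdm1 was too low for a test in every split. Seen from the Prdm1 side, 3.9% of genes passed and no member did, though Bcl6 and Tox had an unadjusted p under 0.05. That held for 2 of 5 members and for 964 of all 7666 genes. Bcl6 was at 41.1, 49.8, 96.0 and 19.9 CPM in Prdm1-positive against 70.9, 109, 126 and 97.9 CPM in Prdm1-negative cells (-0.77 ± 0.25, edgeR adjusted p = 0.0802). It was lower in 4 of 4 libraries, but mutant 2 had only 3 Prdm1-positive cells. Ascl2 gave 0.48 ± 0.26 (edgeR adjusted p = 0.467) and was higher in Prdm1-positive cells of 4 of 4 libraries.

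Counts of cells with 2 factors at once ranked the pairs in a similar way. Each kept cell was thinned to 4000 UMIs, which left out 31, 34, 61 and 26 cells of WT 1, WT 2, mutant 1 and mutant 2 and kept 2816. The number of cells with both factors was set against the number expected if detection were independent within each library. Ascl2 and Tox2 were found together in 162 cells against 67.5 expected (2.40-fold), and the ratios were 4.17, 3.32, 1.93 and 2.69 in the 4 libraries. Ascl2 with Pou2af1 gave 2.11-fold, Ascl2 with Bcl6 2.00-fold, Tox2 with Pou2af1 1.74-fold, Bcl6 with Tox2 1.73-fold and Bcl6 with Pou2af1 1.70-fold. Pairs with Tox gave 1.10 to 1.16-fold, since 2044 of the 2816 cells had a Tox UMI. Bcl6 and Prdm1 were together in 11 cells against 10.5 expected at this depth, and in 21 against 29.9 without thinning. Ascl2 and Prdm1 were together in 8 cells against 4.95 expected at this depth, but in 7 against 7.54 at 6000 UMIs and in 1 against 1.67 at 2000 UMIs, so no direction can be read. Tox2 and Prdm1 were together in 3 cells against 7.84 at 4000 UMIs, 9 against 11.5 at 6000 UMIs and 22 against 21.1 without thinning. For Pou2af1 and Prdm1 the counts were 2 against 5.95, 5 against 8.43 and 17 against 19.0. These ratios thus shifted with depth.

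**Figure D5:**
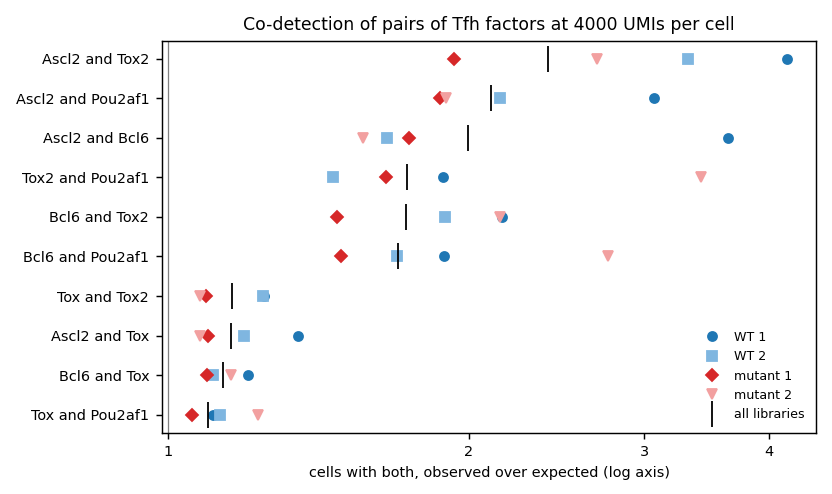
Observed over expected number of cells with both genes of a pair (log axis, line at 1), at 4000 UMIs per cell, with 1 point per library and a bar for all libraries together. All 10 pairs lie above 1 in every library, from 1.10 for Tox and Pou2af1 to 2.40 for Ascl2 and Tox2 over all libraries.

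An Ascl2 UMI was found in 7.01 ± 2.19% of WT and 18.5 ± 4.21% of mutant cells at 4000 UMIs (SD, n = 2 each), and without thinning in 11.1 ± 4.0% and 26.3 ± 3.6%. The groups did not overlap, but 2 libraries against 2 cannot give an exact two-sided permutation p under 0.333. Cells with both Ascl2 and Bcl6 made up 3.49 ± 0.05% of WT and 8.00 ± 4.02% of mutant cells, and cells with Ascl2 and Tox2 3.68 ± 1.68% and 8.83 ± 3.36% (exact permutation p = 0.333 for both). Cells with at least 3 of the 5 Tfh factors made up 8.52% of WT 1 (exact 95% interval 7.03 to 10.2%), 15.6% of WT 2 (12.8 to 18.8%), 25.5% of mutant 1 (22.5 to 28.6%) and 17.4% of mutant 2 (11.8 to 24.3%). Mutant 1 stood above both WT libraries beyond counting error, and the interval of mutant 2 overlapped that of WT 2 (exact permutation p = 0.333 over the 4 libraries). Prdm1 was found in 3 of these 435 cells and in 48 of all 2816.

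The genes most like each member were read from 32 sums of cluster and library with at least 20 cells, by Pearson's r of log2 CPM over 5806 genes. The sums share libraries and depth, so r is a description. Ascl2 was most like BC018473 (r = 0.958), Cebpa (0.923), a basic leucine zipper factor best known in myeloid cells, and Gm14718 (0.885). Bcl6 was most like Cxcr5 (0.933), Fam43a (0.853) and Tspan5 (0.830). Tox2 was most like Cdh23 (0.921), Cebpa (0.884) and Atp1b1 (0.870), a sodium pump subunit. Pou2af1 was most like Cxxc5 (0.886), Zfpm1 (0.865) and Ppp1r14b (0.841). Tox was most like Fyn (0.889), a Src-family kinase of T cell receptor signalling, Top2b (0.863) and Csnk1a1 (0.863). Prdm1 was most like Cxcr6 (0.903), a homing receptor of gut effector cells, Gzmb (0.872), the protease granzyme B, and Arl5a (0.798). Of the 32 sums only the Treg-like one of WT 1 held Prdm1 at a high level (166 CPM, against at most 5.15 CPM in the others), and this likeness was not tested without it. Among the members, Ascl2 and Tox2 had the highest r (0.831), followed by Bcl6 with Pou2af1 (0.778), and Prdm1 had r of -0.11 to 0.27 with the other 5.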

How the data were processed

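Per the labels, 10x 3′ libraries of sorted OT-II T cells were made. The authors deposited 1 matrix of UMI counts per library, genes by cells. The submitters' processing notes list Cell Ranger 6.0.0, Seurat 4 and the build mm10. Another 2 WT samples labelled as hashtag libraries are not analysed here. Kept were barcodes with at least 500 genes and at most 10% mitochondrial UMIs. Doublets were called per library by Scrublet (in scanpy 1.11.5) and removed. Cells were clustered by Leiden on 30 principal components (15 neighbours, resolution 0.8) of 1747 genes, the 2000 most variable without the members and without antigen receptor, mitochondrial, ribosomal protein and unnamed (Gm, Rik) genes. A cluster with at least 3 leading markers of B, epithelial or other non-T cells was left out. A leading gene was at least 2-fold higher than in the other cells.

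UMIs were summed per library, because cells are not replicates, and tested with edgeR 4.0.16 (filterByExpr, TMM, quasi-likelihood F test, Benjamini-Hochberg over all tested genes, threshold 0.05), on all kept T cells and on each state with at least 20 cells in every library. Split and interaction fits had the library as a block. The tests were checked on simulated data. An alternative without barcodes found in 2 libraries, and leaving out each library for levels and co-detection, were chosen after seeing the data. Other alternatives included DESeq2 1.42.0, other scalings, filters and clusterings, equal cluster shares and leaving out each library. Depth was 1704466 to 12037682 UMIs per library, so a count of 3 UMIs, the limit that a count of 0 allows, differs between libraries. Intervals are exact binomial and cover counting error only. Coordinates are from GENCODE vM21 (GRCm38), and promoter windows from RefSeq, where 5 of the 6 members had an entry. Named were the 6 members, list genes past the threshold with up to 3 of the most abundant below it per list, and the 3 genes most like each member among genes of at least 20 CPM (prior count 2). The members, gene lists and tests were chosen with earlier results of these data known.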

Additional observations from a re-analysis of the deposited data

Results flagged for a closer look

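The barcodes that the filters removed (1695 in all, 3759881 UMIs) were used in no comparison, yet they held UMIs of every member above the limit that a count of 0 allows (0.798 CPM over all libraries). In them Tox stood at 197 CPM, Bcl6 at 52.4, Tox2 at 20.7, Pou2af1 at 16.8, Ascl2 at 5.85 and Prdm1 at 3.19 CPM. Tox was at 99.6, 135, 320 and 150 CPM in WT 1, WT 2, mutant 1 and mutant 2, Bcl6 at 35.9, 32.2, 82.1 and 44.9 CPM, and Ascl2 at 4.90, 2.36, 11.2 and 1.87 CPM. Mutant 1 was the highest library for all 3. The 12 Prdm1 UMIs came from 6 barcodes, none of them in WT 1.

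The cluster with epithelial, B and plasma cell markers that was left out held Pou2af1 at 107 CPM over its 109 cells, against 41.3 CPM in kept T cells. Of those cells 52.3% had a UMI of a B cell marker, and in the others Pou2af1 was at 4.20 CPM. The plasma markers of this cluster summed to 8015 CPM over all libraries, and 27.5% of its cells had a Cd3 UMI. It held no Prdm1 UMI.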

How the results depend on the processing

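Of 577 values of single members under the alternatives, 513 kept their direction and their side of the threshold, 38 lost the call, 3 gained it and 23 changed sign. In all kept T cells 2 members passed, against 0 to 3 without each library in turn, 0 with DESeq2, doublets kept, epithelial and B cells kept or equal cluster shares, and 1 with total counts only or without cells that held a B cell UMI. The 6 list genes became 0 to 13 without each library, 3 with DESeq2 and 2 at equal shares. The 141 genes past the threshold became 6 to 263 without each library, 51 with DESeq2, 63 with total counts, 409 with no filter on low counts, 86 at no more than 5% mitochondrial UMIs, 56 with doublets kept, 0 with epithelial and B cells kept (958 at an unadjusted p under 0.05) and 48 at equal shares. The cause of these changes was not tested. At equal shares fewer cells also remained, and the effect of cell number alone was not tested.

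WT and mutant libraries share the numbers 1 and 2. Same-numbered libraries deviated together from their group means by r = 0.028. With 2 libraries per group both pairs must give the same r, so this is 1 value and not 2 checks. It cannot show whether same-numbered libraries shared a batch. With the replicate block, 336 genes and 3 members passed in all kept T cells (Ascl2, Tox2 and Tox), and 1 member in the other states (Tox in cluster 0, edgeR adjusted p = 0.0360).

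Within Tfh-like cells 31 of the 40 split calls could be tested, and 2 held. Genes past the threshold ran from 0 to 49 in Tfh-like cells, 1 to 55 in cluster 0, 0 to 71 in cluster 2 and 1 to 10 for the difference between states. At resolution 0.5 the Tfh-like cluster held 826 cells and was also the cluster that shared most cells with cluster 2. The 2 states were thus not separate at that setting. Its 2 clusters richest in Ascl2 held 98.3% of the Ascl2 UMIs, against 89.2%, but they are not the same 2 states.

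Sign changes at equal shares were Pou2af1 (-0.11), Bcl6 (-0.056) and Prdm1 (0.057). Bcl6 in Tfh-like cells turned to 0.065 with the members allowed in clustering, and Tox2 in cluster 0 to -0.97 at resolution 1.2. In splits of Tfh-like cells only, Tox turned to -0.13 by Ascl2, -0.019 by Pou2af1 and -0.12 by Cxcr5. Tox2 turned to -0.0075 by Pou2af1 and -0.080 by Il4, Bcl6 to -0.023 by Cxcr5 and -0.13 by Il4, and Pou2af1 to -0.35 by Il4. Without each library in turn, Prdm1 ranged from -1.28 to 0.38 in all kept T cells, Bcl6 from -0.16 to 0.044 in Tfh-like cells and -0.60 to 0.0093 in cluster 0, and Pou2af1 from -0.33 to 0.014 in cluster 2. The difference between states ranged from -1.06 to 0.022 for Tox2, -0.40 to 0.029 for Tox and -0.075 to 0.57 for Bcl6, and Pou2af1 in the Prdm1 split from -0.39 to 0.27. The Tox split of Tfh-like cells, and the Prdm1 splits thinned or of Tfh-like cells, could not be fitted. Depth limits Prdm1 most, at 4 UMIs in mutant 2.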
